A study of Drosophila melanogaster with 4 samples.

Results

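Wing imaginal discs that overexpress phosphoinositide 3-kinase (PI3K) are described here against control discs, gene by gene, from 1 array each. These are 2 of the 4 arrays of the series, picked by their sample titles, and they cover the same 11982 named genes as the series as a whole. The PI3K discs came from flies of genotype yw with en-Gal4 over UAS-PI3K, and the control discs from yw flies with en-Gal4 over a wild-type chromosome. A second pair of arrays shares no array with the first and is used beside it: discs with both transgenes (en-Gal4 over UAS-PI3K, with 1 copy of UAS-Hdac3 RNAi) against discs with en-Gal4 and Hdac3 RNAi alone. All flies were yw, carried en-Gal4 and were kept at 25 degrees, and discs were taken from larvae of instar 3.

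The wing disc is a larval epithelium from which the adult wing and dorsal thorax develop. PI3K acts below the insulin receptor: it makes a membrane lipid that recruits Pdk1 and Akt, and active Akt promotes growth through TOR and keeps the transcription factor FOXO out of the nucleus. In flies, raising this pathway enlarges cells and organs, and FOXO activates the insulin receptor gene when the pathway is weak. The engrailed driver, en-Gal4, is active in the posterior compartment, so each disc mixes driven cells with cells that lack driven transgenes, and a difference in the driven cells alone appears diluted. The study asks how loss of the histone deacetylase Hdac3 affects growth driven by PI3K. The sources used here do not say which PI3K form was used, how many discs were pooled or the sex of the larvae. Fewer cells of a type and less RNA per cell cannot be told apart in whole discs.

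Values are array intensities on a linear scale, whose summary method is not certain, set to a common trimmed mean, and a log2 ratio is PI3K over control, so that 1 means 2-fold higher. Values under a floor of 26.9, the level that most odorant and gustatory receptor probe sets stay below, count as not above background. With 1 array a genotype there is no spread between replicates, and no test was run. Probe sets of the same gene differed in log2 ratio by a pooled SD of 0.23 over 452 genes, a scale that holds no variation between animals. Of the named genes, 7698 reached the floor in PI3K discs and 7540 in control discs. The PI3K array had the lower 3' to 5' ratio for actin (2.02 against 3.36 in control), GAPDH (1.92 against 2.17) and eIF-4a (3.11 against 3.95), a measure of how far labelled RNA reaches towards the 5' end. In the second pair the array with both transgenes was also the lower, against Hdac3 RNAi alone. The values were 2.85 against 3.25 for actin, 1.995 against 2.21 for GAPDH and 3.67 against 3.94 for eIF-4a. The part of this measure in the gene ratios of either pair was not tested.

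The disc identity of both samples was plain in their patterning genes. Of 17 wing disc markers, 14 are analysed here, and each reached the floor on both arrays. Nubbin (nub), a wing pouch factor, had 2190.0 in PI3K discs against 2642 in control discs. Vestigial (vg), the wing selector, had 687 in PI3K discs against 992 in control discs. Apterous (ap), which marks the dorsal compartment, had 910.0 in PI3K discs against 1117 in control discs. The markers were therefore present in both, at lower levels in PI3K discs for 13 of 14. Of all genes on both arrays, 45.6% had a log2 ratio below 0. With the median ratio of genes of like span subtracted, 11 of the 14 were below 0. The sum of the 14 intensities was 10807 in PI3K discs, 14516 in control discs, 15090 with both transgenes and 16283 with Hdac3 RNAi alone, lowest on the PI3K array. The transgene itself was not checked here, since no PI3K subunit gene is analysed here.

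The driver locus and its neighbourhood gave a mixed picture. Engrailed (en), which sets posterior identity and whose enhancer drives Gal4 here, had 1150.1 in PI3K discs against 1428 in control discs, a log2 ratio of -0.31. Hedgehog (hh), the signal that posterior cells send, had 801 in PI3K discs against 752 in control discs, a ratio of 0.09. Invected (inv), the paralogue beside en, had 227 in PI3K and 49.99 in control discs, and 254 with both transgenes and 215 with Hdac3 RNAi alone. It is the control array that stands apart for inv, with a ratio of 2.18 in the first pair and 0.24 in the second.

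Of 7436 genes that reached the floor on both arrays, 63 were at least 2-fold higher in PI3K discs (0.847%) and 29 at least 2-fold lower (0.39%). A further 12 were at least 2-fold higher as bounds, out of 262 genes above the floor only in PI3K discs (4.58%), and 1 was lower, out of 104 above it only in control discs (0.962%). The middle of the distribution barely moved: the median log2 ratio was 0.02, and 54.4% of the genes were above 0. The higher genes were short, with a median span of 1411 bp, and the lower genes long, with 14266 bp, against 2697 bp over all genes. Both sets were dim: the median control intensity was 77.6 for higher and 171 for lower genes, against 349 over all. In PI3K discs it was 269 for higher and 72.9 for lower genes, against 344 over all. Picking genes by their ratio favours a low value on 1 side. The second pair was narrower, with 10 of 7456 genes at least 2-fold higher (0.134%) and 28 lower (0.376%).

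**Figure D1:**
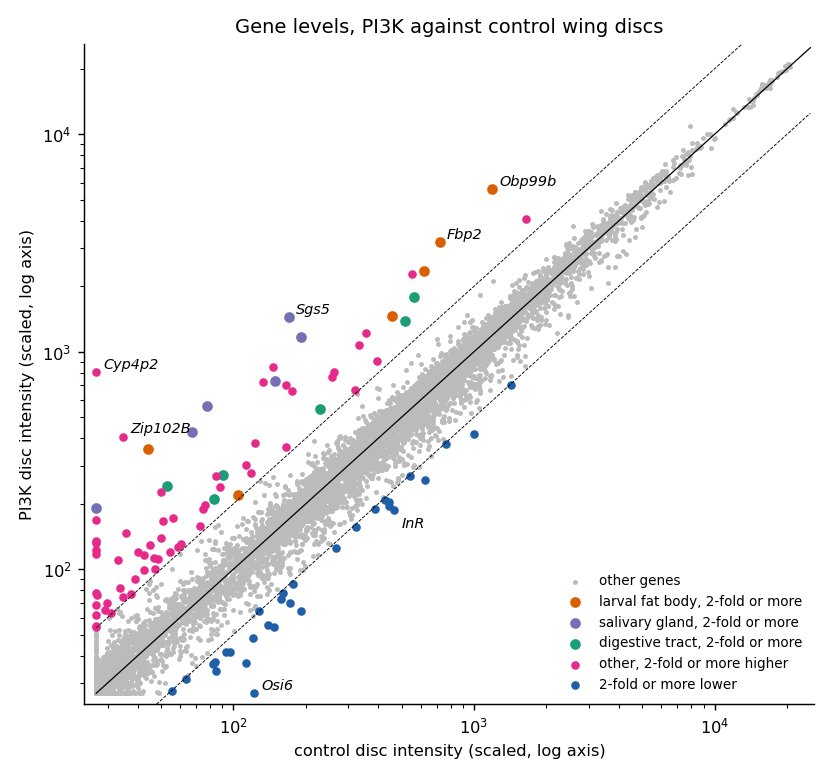
Scaled intensity of each named gene in PI3K discs (vertical, log axis) against control discs (horizontal, log axis), with values under the floor of 26.9 drawn at the floor. The solid line marks equal levels and the dashed lines 2-fold. Larval fat body, salivary gland and digestive tract genes make up many of the points far above the upper line, while most genes lie close to the diagonal.

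The insulin receptor relay and the genes listed with it were lower in PI3K discs throughout. The insulin receptor gene InR had 188 in PI3K discs against 465 in control discs, a log2 ratio of -1.31, and it is the only member of its list past 2-fold. Akt, the kinase that PI3K lipid recruits, had 485 in PI3K discs against 836 in control discs (-0.79). Pdk1, the kinase that activates Akt, had 450.1 in PI3K discs against 646 in control discs (-0.52). The transcription factor gene foxo, whose product Akt holds in check, had 96.8 in PI3K discs against 156 in control discs (-0.69). The adaptor chico, which links the receptor to PI3K, had 167 in PI3K discs against 202 in control discs (-0.28). Melted (melt), a membrane protein that binds FOXO and Tsc1, was at -0.27. Of the 14-3-3 proteins, which bind phosphorylated FOXO, 14-3-3zeta was at -0.90 and 14-3-3epsilon at -0.06.

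All 8 measured members of this list, which also holds foxo, melt and the 14-3-3 genes, were thus below 0, with a median of -0.61. Of the 7802 genes measured on at least 1 array 44.8% were below 0, and the median over both-array genes was 0.02. In the second pair, which shares no array with the first, all 8 were again below 0, with a median of -0.28, against 43.5% of all genes. InR had 389.8 with both transgenes against 541 with Hdac3 RNAi alone there (-0.47), Akt 799 with both transgenes against 937 with Hdac3 RNAi alone (-0.23) and Pdk1 595 with both transgenes against 775 with Hdac3 RNAi alone (-0.38). The ratios of the second pair were smaller for 7 of the 8 genes, 14-3-3epsilon being the exception at -0.12. These genes are also long, and with the median ratio of genes of like span subtracted their median was -0.42 in the first pair. After that subtraction 1 of the 8 was above 0. Span was not subtracted in the second pair, where the 3' to 5' ratios differed in the same direction as in the first. Another 6 entries of the list are not analysed here.

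Among secreted regulators of insulin signalling, ImpL2 and Ilp8 were higher. ImpL2, a secreted protein that binds insulin-like peptides and limits their action, had 2106 in PI3K and 1195 in control discs, and 954 with both transgenes and 812 with Hdac3 RNAi alone, highest on the PI3K array. Its log2 ratio was 0.82 in the first pair and 0.23 in the second. Ilp8, a relaxin-like peptide that damaged or overgrown discs release to delay maturation, was near the floor, with 46.99 in PI3K discs against 30.02 in control discs (0.65). Sdr, a decoy for insulin-like peptides, had 235 in PI3K discs against 259 in control discs (-0.14). Ilp2 was above the floor only in PI3K discs, at 28.1.

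Further down, the TOR branch was close to control apart from a few genes. S6k, the kinase through which TOR promotes growth, had 602 in PI3K discs against 1024 in control discs (-0.77). RagC-D, a GTPase that signals amino acid supply to TOR, had 849 in PI3K discs against 668 in control discs (0.35). The cap-binding translation factor eIF4E1 had 3842 in PI3K discs against 3371 in control discs (0.19). The TOR-repressed transcription factor REPTOR was at -0.28 and its partner REPTOR-BP at -0.14. The other members lay between -0.17 and 0.06: rictor, Iml1, Lst8, mio, Tsc1, gig, Sin1, Nprl2 and Nprl3, with raptor near the floor in control discs and under it in PI3K discs. The list's median was -0.09 with 6 of 15 above 0, or 4 of 15 with the intensities as deposited, and 0.00 in the second pair.

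Genes that FOXO activates did not share 1 direction. Besides InR, scylla (scyl), an inhibitor of TOR that stress induces, had 912 in PI3K discs against 1556 in control discs (-0.77). Pepck1, which makes a gluconeogenic enzyme, had 2308 in PI3K discs against 1763 in control discs (0.39), and ImpL2 is given above. Brummer (bmm), a fat-mobilising lipase, was at -0.07, cabut (cbt), a transcription factor, at -0.06 and sestrin (Sesn), an inhibitor of TOR, at 0.17. The median of the 7 was -0.06, with 3 above 0, and 0.07, with 4 above 0, after subtraction of span. In the second pair it was 0.23, with 6 of 7 above 0 and InR the exception. InR and ImpL2 also belong to the lists above, and 4 entries, Thor among them, are not analysed here.

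**Figure D2:**
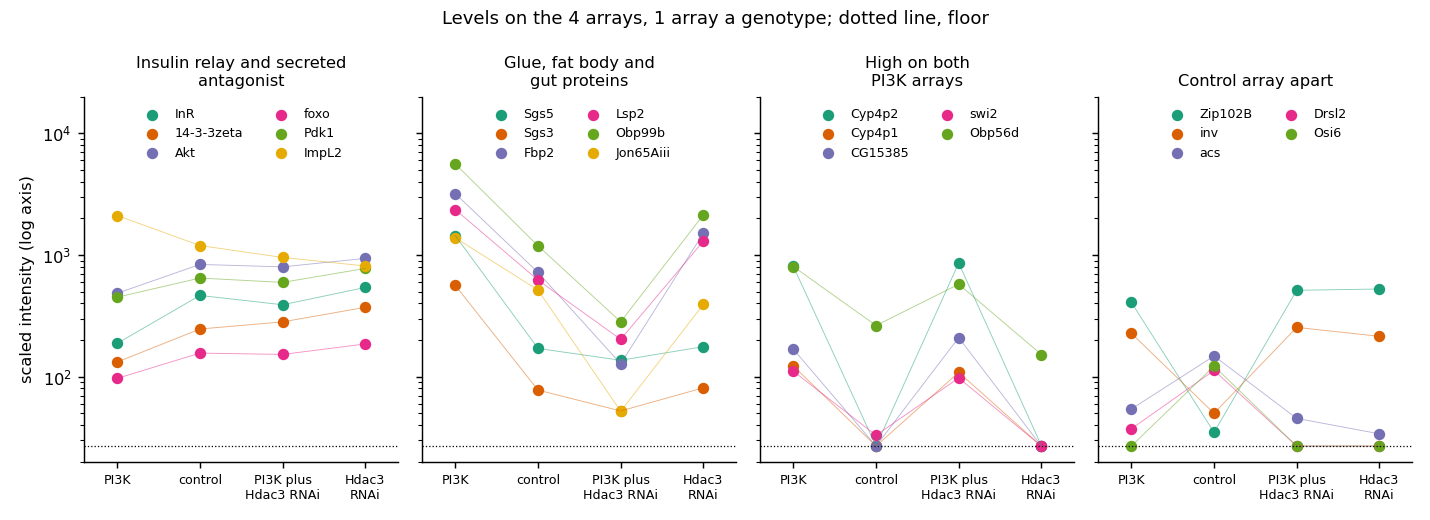
Scaled intensity (log axis) of named genes on each array, PI3K, control, PI3K plus Hdac3 RNAi and Hdac3 RNAi, with 1 point an array and thin lines only to link points of 1 gene; the dotted line is the floor of 26.9. InR, Akt, Pdk1 and foxo are lowest on the PI3K array, glue and storage protein genes highest there, Cyp4p2 is high on both PI3K arrays, and Zip102B and inv are low on the control array alone.

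Genes of energy and protein metabolism were higher by small amounts, many of them together. All 71 mitochondrial ribosomal protein genes were above 0, with a median of 0.24, where 55.2% of the 7802 genes were. The extremes were mRpL18 with 702 in PI3K discs against 460.0 in control discs (0.61) and mRpL20 with 1480.3 in PI3K discs against 1436 in control discs (0.04). In the second pair 66 of the 71 were above 0, with a median of 0.10. The genes are short, with a median span of 910 bp, and with genes of like span subtracted 65 of 71 were above 0 and the median was 0.13. Proteasome subunits, which degrade tagged proteins, were above 0 in 26 of 27, with a median of 0.17 and 0.07 after subtraction of span. Rpt4, an ATPase of the regulatory particle, had 3021 in PI3K discs against 2496 in control discs (0.28), and Rpn13, a ubiquitin receptor, had 2354 in PI3K discs against 1945 in control discs (0.28).

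The respiratory chain followed with 53 of 57 above 0 and a median of 0.13, which became 0.03, with 36 of 57 above 0, after subtraction of span. RFeSP, the iron-sulphur subunit of complex III, had 2029.8 in PI3K discs against 1444 in control discs (0.49), and the complex I subunit ND-51 had 1899.8 in PI3K discs against 1469 in control discs (0.37). Glycolytic genes were above 0 in 8 of 9, or 7 of 9 with each of the other scalings, with a median of 0.18. Phosphoglycerate kinase (Pgk) had 2659 in PI3K discs against 1994 in control discs (0.42), the mutase Pglym78 had 1202 in PI3K discs against 912 in control discs (0.40) and phosphofructokinase (Pfk) had 1443 in PI3K discs against 1184 in control discs (0.28). Hexokinase A (Hex-A), at the entry of the pathway, was the 1 member below 0, with 309.5 in PI3K discs against 389.9 in control discs (-0.33). All 4 measured pentose phosphate genes, Rpi, Taldo, Rpe and Pgls, lay between 0.13 and 0.27. These 3 groups had second-pair medians of 0.05, 0.04 and 0.03.

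Lipid and amino acid synthesis rested on single genes. Fatty acid synthase (FASN1) had 968 in PI3K discs against 587 in control discs (0.72) and acetyl-CoA synthetase (AcCoAS) 136 in PI3K discs against 79.4 in control discs (0.78). The other 10 measured members of the lipid list, SREBP, SCAP and ACC among them, lay between -0.19 and 0.22, and the list's median was 0.03, or 0.16 with span subtracted. FASN1 in the second pair was at 0.06 and AcCoAS at -0.18. Astray (aay), which makes serine, had 122 in PI3K discs against 70.6 in control discs (0.79) and the glutamine synthetase Gs1 231 in PI3K discs against 168 in control discs (0.46). Pathetic (path), an amino acid transporter tied to growth, was lower, with 1489.8 in PI3K discs against 2274 in control discs (-0.61). Among tRNA synthetases 12 of 16 were above 0, with a median of 0.13, from GluProRS (-0.13) to HisRS (0.39).

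Ribosome production was close to control. Cytosolic ribosomal protein genes had a median of 0.04, with 33 of 39 above 0, but 26 with the intensities as deposited, 25 after quantile normalization and 27 when centred on the median. With genes of like span subtracted the direction turned, with 6 of 39 above 0 and a median of -0.07. The Myc and nucleolar list had a median of 0.05, from the Myc antagonist Mnt, with 96.9 in PI3K discs against 170.4 in control discs (-0.81), to the RNA polymerase I subunit Polr1C (0.23), and -0.01 after subtraction of span. Translation factors had a median of 0.05, with eIF4G2, a scaffold of the initiation complex, at -0.84 and the selenocysteine elongation factor eEFSec at 0.33. Autophagy genes had a median of -0.08; their regulator Mitf was at -0.68, the starting kinase Atg1 at -0.42 and Atg12 at 0.33. For the vacuolar proton pump, 15 of 20 were above 0, but 8 of 19 with the intensities as deposited and 8 of 20 when centred or with span subtracted, and the median was 0.01. Citric acid cycle genes had 0.04, mitochondrial import and biogenesis genes 0.10 (0.02 with span subtracted) with the import receptor Tom70 at 0.44, and ER folding and secretion genes 0.07.

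**Figure D3:**
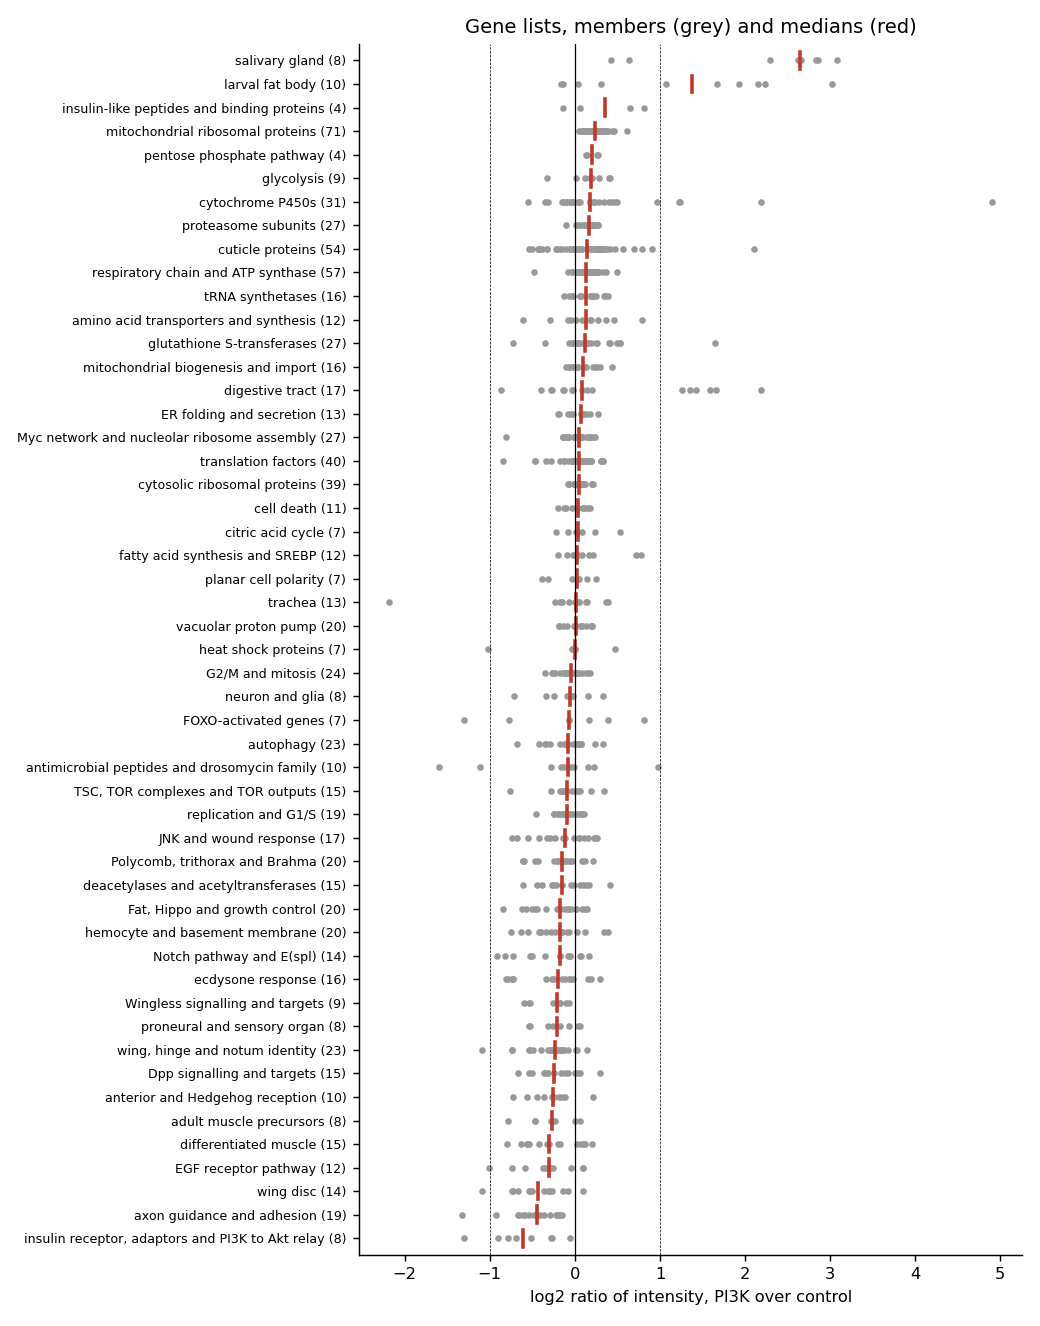
Log2 ratio of intensity, PI3K over control, for each gene list with at least 4 measured members; grey points are members, red bars list medians, dashed lines 2-fold, and the number in brackets is the members measured. Salivary gland and fat body genes are farthest to the right and the insulin receptor relay farthest to the left, while medians within 0.1 of 0 can change sign with the scaling.

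Cell cycle and cell death genes stayed near control levels. Replication and G1/S genes had a median of -0.09, with 14 of 19 below 0, against 44.8% of all genes. With span subtracted 16 of 19 were below 0, with a median of -0.10, and in the second pair 4 of 19 were above 0. Cyclin E (CycE), which drives entry into S phase, was the lowest, with 441 in PI3K discs against 608 in control discs (-0.46), and PCNA, the replication clamp, had 5423 in PI3K discs against 5195 in control discs (0.06). Mitosis genes had a median of -0.05, from the phosphatase gene twe (-0.35), near the floor, to the anaphase-promoting complex gene ida (0.18). Of 24 mitosis genes, 15 were below 0. With span subtracted 19 were, with a median of -0.08, whereas in the second pair 15 of 24 were above 0. Cell death genes ranged from the apoptosome gene Dark (-0.20) to p53 (0.17), with a median of 0.04. JNK and wound response genes had a median of -0.12; ftz-f1, a nuclear receptor, was at -0.74, the kinase hep at -0.68, the Fos gene kay at -0.42 and the JNK phosphatase puc, a readout of the pathway, at -0.24, while the cytokine upd2 was at 0.26. With span subtracted the JNK list's direction turned, with 9 of 17 above 0 and a median of 0.02, and with the mean of all probe sets of each gene the median was -0.01.

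Stress and detoxification genes differed singly. Hsp68, a heat-inducible chaperone, had 378 in PI3K and 768 in control discs, and 1810.3 with both transgenes and 1429.6 with Hdac3 RNAi alone, lowest on the PI3K array. The small heat shock gene Hsp26 went the other way, with 10966 in PI3K discs against 7918 in control discs (0.47), and the heat shock list's median was 0.00. The antifungal peptide gene Drs had 72.9 in PI3K and 158 in control discs, and 75.4 with both transgenes and 309 with Hdac3 RNAi alone, so it was lower with PI3K in both pairs (-1.12 and -2.04). Its relative Drsl2 had 37.2 in PI3K discs against 113 in control discs (-1.60) and did not reach the floor on the remaining 2 arrays, while Drsl5 had 88.6 in PI3K discs against 45.1 in control discs (0.97). Glutathione S-transferases, which conjugate toxins, were above 0 in 21 of 27, with a median of 0.12 and, with 15 of 27 above 0, 0.02 after subtraction of span. GstE3 was the 1 member past 2-fold, with 383 in PI3K and 123 in control discs, and 95.3 with both transgenes and 129.8 with Hdac3 RNAi alone. Among cytochrome P450 genes, 4 of 31 were past 2-fold upwards and none downwards: Cyp4d1 (1.23), Cyp6g1 (1.23), and Cyp4p1 and Cyp4p2 as bounds, where 0.847% of all genes on both arrays and 4.58% of those above the floor only in PI3K discs were. The P450 list's median was 0.18, but 0.05 over members on both arrays and 0.00 with a floor of 100.

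Patterning genes of the disc were lower in PI3K discs on most lists, and by less on most of them once span was subtracted. Wing, hinge and notum identity factors were below 0 in 20 of 23, with a median of -0.23, which with span subtracted became 16 of 23 and -0.11. Of all genes on at least 1 array, 44.8% were below 0. The hinge factor zfh2 had 125 in PI3K discs against 268 in control discs (-1.10), the only one past 2-fold. Tailup (tup), a notum factor, had 50.5 in PI3K discs against 84.5 in control discs (-0.74), and the Iroquois gene caup, also of the notum, had 649 in PI3K discs against 911 in control discs (-0.49). The lower ones thus included pouch, hinge and notum factors, while al, Doc1 and C15 lay between 0.02 and 0.14. The list's median in the second pair was -0.09, with 7 of 23 above 0.

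Among signalling pathways, EGF receptor genes had a median of -0.31, with 10 of 12 below 0, against 44.8% of all genes. Sprouty (sty), a feedback inhibitor of receptor tyrosine kinases, had 269 in PI3K discs against 543 in control discs (-1.01). Its 2 probe sets gave -1.01 and -0.68. Star (S), needed to export the ligand Spitz, had 307 in PI3K discs against 511 in control discs (-0.73), and the repressor aop had 1078 in PI3K discs against 1620.5 in control discs (-0.59). The receptor Egfr itself was at -0.26. Notch pathway genes had a median of -0.18: the protease kuz was at -0.91, the coactivator mam at -0.82 and the corepressor H at -0.73. The target genes E(spl)m3-HLH (-0.18), E(spl)mbeta-HLH (-0.06) and E(spl)m7-HLH (0.06) differed less than those regulators. Span was not subtracted from these ratios, and its part in this contrast was not tested.

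Dpp pathway genes had a median of -0.25. The target genes bi (omb) with 664 in PI3K discs against 1059 in control discs (-0.67) and salm with 1404 in PI3K discs against 1993 in control discs (-0.51) were lower, as was dpp itself with 529.6 in PI3K discs against 679 in control discs (-0.36), whereas the ligand gbb (0.06) and the receptors put (0.00) and sax (0.04) were close to control and the Smad Med was higher (0.30). Hedgehog reception genes had a median of -0.26, or -0.12 with span subtracted. Cubitus interruptus (ci), the anterior Hedgehog effector, had 1478 in PI3K discs against 2455 in control discs (-0.73), and its negative regulator Su(fu) had 660.0 in PI3K discs against 570.3 in control discs (0.21). All 9 measured Wingless pathway and target genes were below 0, against 44.8% of all genes, with a median of -0.21 (-0.30 with span subtracted). The lowest were the inhibitor nkd (-0.60) and Dll (-0.54). Another 11 entries of that list, wg among them, are not analysed here.

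Fat and Hippo growth control genes were below 0 in 15 of 20, with a median of -0.17, or 13 of 20 and -0.08 with span subtracted. Of all genes, 44.8% were below 0. Expanded (ex), an upstream activator of the pathway and a target of its effector Yorkie, had 290.1 in PI3K discs against 432 in control discs (-0.57), and the kinase wts had 579 in PI3K discs against 798 in control discs (-0.46). Yorkie itself (yki) was at -0.08, and the cell polarity gene dlg1 at -0.85. On the second pair of arrays 3 of 20 were above 0, with a median of -0.06. Ecdysone response genes had a median of -0.20 (-0.11 with span subtracted), with the early gene br (2067 against 3609, a ratio of -0.80), the receptor EcR (-0.73) and Blimp-1 (-0.79) among the lowest. Planar polarity genes had 0.02 and proneural genes -0.22. Polycomb, trithorax and Brahma genes had -0.15, or -0.08 with span subtracted, with trx at -0.60. Deacetylase and acetyltransferase genes had -0.15, or -0.02 with span subtracted, with the corepressor Smr at -0.61. Cuticle proteins, which build the exoskeleton, had 0.14, or 0.03 with span subtracted, and Cpr64Ac stood out with 707 in PI3K and 165 in control discs, and 112 with both transgenes and 55.5 with Hdac3 RNAi alone.

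Axon guidance and adhesion genes, which encode cell surface receptors and ligands, were below 0 in all 19 measured, with a median of -0.45. Of all genes, 44.8% were below 0. Semaphorin 1a (Sema1a) had 55.4 in PI3K and 139 in control discs, and 107 with both transgenes and 101 with Hdac3 RNAi alone, a ratio of -1.33. The next lowest members were plum (-0.93), PlexB (-0.67) and Nrg (-0.66). These are among the longest genes measured, with a median span of 45235 bp. With genes of like span subtracted, 4 of 19 were above 0 and the median was -0.24. The second-pair median was -0.09.

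Gene span moved with the ratio across the whole array pair. With the genes cut by span into 4 equal groups, the median log2 ratio was 0.11 in the shortest and -0.16 in the longest, and with 10 groups it was 0.13 and -0.24 at these ends. Spearman's rho between span and ratio was -0.45 over 7406 genes of the first pair and -0.26 over 7271 of the second, a description over genes that share the same arrays. Of the 29 genes at least 2-fold lower, 17 were in the longest of the 4 groups, and 18 genes were at least 2-fold lower once the median of genes of like span was subtracted. Of the 20 lists with a median of -0.1 or less, 17 had a median closer to 0 after that subtraction and 3 had one farther from it: Wingless, Notch and germline genes. Of the 14 lists with a median of 0.1 or more, 12 came closer to 0. The medians before and after were -0.43 and -0.29 for wing disc markers, -0.25 and -0.08 for Dpp genes, -0.31 and -0.21 for EGF receptor genes, and -0.18 and -0.22 for Notch genes. The sign of the median turned for 6 lists: JNK, FOXO-activated, nucleolar, cytosolic ribosomal protein, proton pump, and neuron and glia genes. The part of span beyond this subtraction was not tested.

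Most measured genes of chromosome 4 were lower in PI3K discs. This small chromosome is largely heterochromatic, and the group was looked at after its values were seen. Of its 41 genes on both arrays, 37 were below 0, with a median of -0.47, while the other chromosome arms had medians between 0.01 and 0.03. The median intensity of the 41 genes was 354 in PI3K discs, 476 in control discs, 494 with both transgenes and 534 with Hdac3 RNAi alone. Examples are the Mediator subunit gene MED26 with 671 in PI3K discs against 1170.4 in control discs (-0.80), Taf3 of the basal transcription machinery (-0.71), the translational repressor gene 4E-T (-0.64) and Rnf11 (-1.04), besides ci and zfh2. The 4 genes above 0 were Zip102B (3.55), apolpp (1.07), ATPsynbeta (0.16) and Rad23 (0.16). Their median span was 10484 bp, and with genes of like span subtracted 35 of 41 were below 0, with a median of -0.33. In the second pair 36 of 42 were below 0, with a median of -0.08.

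**Figure D4:**
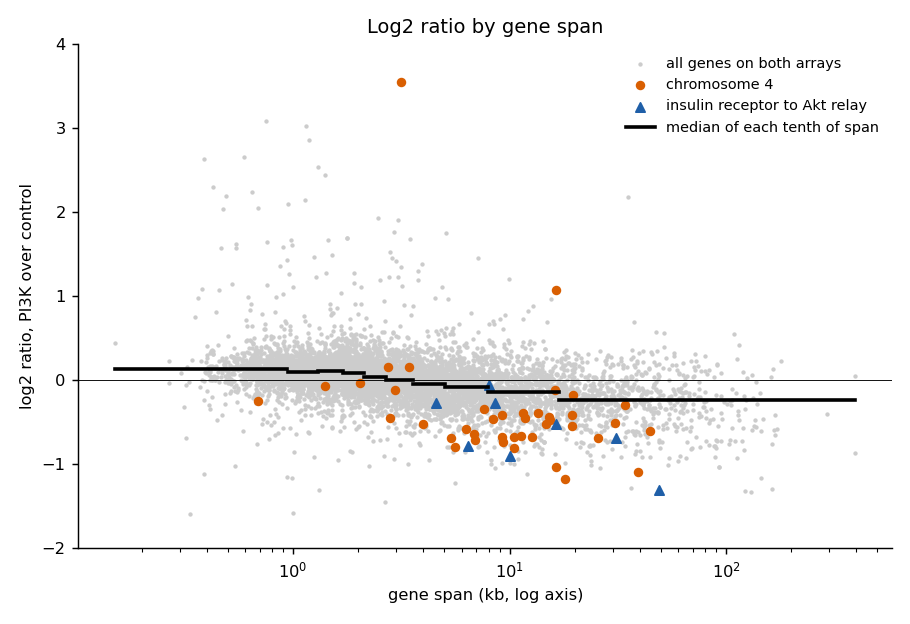
Log2 ratio of intensity, PI3K over control, against gene span in kb (log axis) for genes on both arrays; black bars are the median of each of 10 span groups. The bars step down from 0.13 to -0.24, and most chromosome 4 genes (orange) and insulin relay genes (blue triangles) lie below the bars of like span.

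Some other genes at least 2-fold lower were singled out after their values were seen, with no count of their kind over all genes. The mRNA-binding protein gene Imp had 257 in PI3K and 628 in control discs, and 703 with both transgenes and 713 with Hdac3 RNAi alone, and Syncrip (Syp), another RNA-binding protein gene, had 706 in PI3K and 1419 in control discs, and 1323 with both transgenes and 1465 with Hdac3 RNAi alone. Both were lowest on the PI3K array. The splicing factor gene muscleblind (mbl) had 69.8 in PI3K discs against 171 in control discs (-1.30), the poly(A) polymerase gene Gld2 had 41.5 in PI3K discs against 96.7 in control discs (-1.22), the translational regulator mei-P26 was at -1.05 and the RNA-binding protein gene shep at -1.32. Several have probe sets that disagree: over 4 probe sets Imp ranged from -1.48 to 0.04, over 3 above the floor shep from -1.32 to 0.21, and over 5 above it mbl from -1.42 to -0.25, whereas the 2 of Syp gave -1.04 and -1.01. Tet, an oxidase of methylated bases, had 1 probe set at -1.03 and 1 at 0.10, and Snoo, a regulator of TGF-beta type signalling, 1 at -1.04 and 1 at 0.02. The zinc finger gene mamo (-1.17) and the tetraspanin gene Tsp96F (-1.04) were measured by 1 probe set above the floor each. Of the 29 lower genes, 22 had their lowest value of the 4 on the PI3K array, and 15 were at least 2-fold below each of the other 3. Picking the genes by a low ratio of PI3K over control favours such counts, and no share over all genes was counted.

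Many of the largest ratios belonged to genes of other larval organs. Salivary glue genes, whose products fix the pupa to its support, were far higher: Sgs5 had 1441 in PI3K and 171 in control discs, and 136 with both transgenes and 176 with Hdac3 RNAi alone, and Sgs3 had 562 in PI3K and 77.6 in control discs, and 52.3 with both transgenes and 80.97 with Hdac3 RNAi alone. The others past 2-fold were Sgs7 with 1174 in PI3K discs against 190.3 in control discs (2.63), Sgs8 with 731 in PI3K discs against 149 in control discs (2.30), and Sgs4, with 192 in PI3K discs and below the floor in control discs, a log2 ratio of at least 2.84. Of 6 measured genes with an Sgs name, all were above 0 and 5 were past 2-fold. Glue RNA reached the floor on the remaining arrays too, apart from Sgs4. Sgs1, the ng genes and the gland's regulator fkh were below the floor on every array. All 8 measured of 14 salivary gland genes were above 0, against 55.2% of all genes, with a median of 2.64. The 2 that are not past 2-fold are the salivary transcription factor gene sage (0.42) and Eig71Ee (0.64). The summed intensity of the 8 was 4676 in PI3K discs, 779.6 in control discs, 553 with both transgenes and 813 with Hdac3 RNAi alone.

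Fat body genes were next. Fat body protein 2 (Fbp2) had 3188 in PI3K and 719 in control discs, and 128 with both transgenes and 1507 with Hdac3 RNAi alone. The storage protein gene Lsp2 had 2358 in PI3K and 622 in control discs, and 203 with both transgenes and 1297 with Hdac3 RNAi alone, and the carrier protein gene Obp99b had 5593 in PI3K and 1189 in control discs, and 283 with both transgenes and 2132 with Hdac3 RNAi alone. In these genes PI3K discs were highest, then Hdac3 RNAi alone, then control, and discs with both transgenes lowest. Obp44a behaved otherwise, with 358 in PI3K and 44.1 in control discs, and 37.8 with both transgenes and 42.7 with Hdac3 RNAi alone, high on the PI3K array alone. The apolipoprotein gene apolpp (1.07) and Fbp1 (1.67) complete the 6 of 10 measured members past 2-fold, while Obp99a (-0.14) and the yolk protein genes Yp2 (-0.17) and Yp3 (0.31) were not. Over all genes on both arrays, 0.847% were at least 2-fold higher. The list's median was 1.37, with 8 of 10 above 0, against 55.2% of all genes. The storage protein genes Lsp1alpha, Lsp1beta and Lsp1gamma are not analysed here, and Yp1 was below the floor. The summed intensity of the list was 14260.0 in PI3K discs, 4308 in control discs, 2099.6 with both transgenes and 7915 with Hdac3 RNAi alone.

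Digestive genes split within their own list. The list's median was 0.09, with 9 of 17 measured members above 0, against 55.2% of all genes. Of the 17, 6 were at least 2-fold higher, against 0.847% of all genes on both arrays. They were the lysozyme gene LysS (2.19), the proteases Jon65Aiv (1.66), Jon25Bii (1.59), Jon65Aiii (1.42) and Jon25Bi (1.35), and yip7 (1.26). The trypsin genes alphaTry (-0.26), betaTry (0.09) and epsilonTry (0.20) and the proteases Jon66Ci (-0.40) and Jon74E (-0.03) were not past 2-fold. The other 31 of 48 genes, LysP, LysX and the Mal-A genes among them, were below the floor on both arrays. Jon65Aiv had 1792 in PI3K and 566 in control discs, and a value below the floor with both transgenes and 530.4 with Hdac3 RNAi alone. The summed intensity was 4857 in PI3K discs, 2018 in control discs, 728 with both transgenes and 1818 with Hdac3 RNAi alone. The part of RNA from these organs in the other differences was not tested. Without members of the lists of other tissues, the count of genes at least 2-fold higher was 46 and that of lower genes 29. This step left out listed genes only. Unlisted genes with the same order of the 4 arrays as Fbp2, such as CG34166 and CG2233, stayed in the count.

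Markers of cells that belong to or adhere to the disc were lower or near control. Adult muscle precursor markers had a median of -0.27, with the transcription factor gene zfh1 at -0.78 but the defining genes twi at 0.06 and Him at 0.00. Differentiated muscle markers had -0.30, with the titin-like gene sls at -0.79, and 10 of 15 below 0, but 0.02 with only probe sets whose name has no suffix. Hemocyte and basement membrane genes had -0.18, or -0.06 with span subtracted, with the blood cell receptors eater (-0.75) and NimC1 (-0.55) low and the prophenoloxidase genes PPO1 (0.34) and PPO2 (0.39) high. Tracheal markers had 0.01, although Osi6 was at 122 in control discs and below the floor elsewhere. Neuron and glia markers had -0.06, or 0.03 with span subtracted, and 2 of 8 germline markers were measured, krimp at -0.90 and bam above the floor only in PI3K discs. The Hox gene Antp, active in the thorax, had 410.1 in PI3K discs against 696 in control discs (-0.76).

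Other genes past 2-fold upwards fell outside the lists, which do not hold every gene of an organ. Sod3, an extracellular superoxide dismutase, had 4062 in PI3K and 1647 in control discs, and 3814 with both transgenes and 2524 with Hdac3 RNAi alone, and its 2 probe sets gave 1.30 and 1.71. The clotting protein gene fondue (fon) had 660.4 in PI3K and 176 in control discs, and 59.6 with both transgenes and 204 with Hdac3 RNAi alone. The lipid droplet protein gene Lsd-1 had 129 in PI3K and 44.98 in control discs, and 31.2 with both transgenes and 48.8 with Hdac3 RNAi alone, and Gnmt, which makes an enzyme of methyl group metabolism, was at 132 in PI3K discs and below the floor elsewhere. These were again highest in PI3K discs. Both fon and Lsd-1 had the same order of the 4 arrays as Fbp2, and the organ their RNA came from was not tested. Galt, an enzyme of galactose use, had 166 in PI3K and 51.2 in control discs, and 143 with both transgenes and 157 with Hdac3 RNAi alone, and so set the control array apart rather than the PI3K array. Tan (t), an enzyme of pigment metabolism, was at 118 in PI3K discs and under the floor in control discs. In all, 56 of the 63 higher genes had their highest value of the 4 on the PI3K array. Of the 63, 31 were at least 2-fold above each of the other 3 arrays. Picking the genes by a high ratio of PI3K over control favours such counts, and no share over all genes was counted.

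For 6 of the 63 higher genes and 6 of the 29 lower ones the control array was at least 2-fold apart from all 3 others. These genes too were picked by PI3K over control, and no share over all genes was counted. The zinc transporter gene Zip102B had 408 in PI3K and 34.9 in control discs, and 512 with both transgenes and 525 with Hdac3 RNAi alone. Acs was higher in control, with 54.2 in PI3K and 148 in control discs, and 45.4 with both transgenes and 33.9 with Hdac3 RNAi alone. Galt, inv and Drsl2 are among the others.

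The second pair gives the same genes on arrays that the first did not use. Of the 63 higher genes, 55 reached the floor on both arrays of that pair, and 10 of these were higher with PI3K there as well, against 56.5% of all genes, with 3 past 2-fold upwards and 18 past 2-fold downwards. Of the 29 lower genes, 25 were measured there and 18 were lower, against 43.5% of all genes, with 1 past 2-fold. The higher genes thus went mostly the opposite way in the second pair, and the lower genes mostly the same way by small amounts, with a median of -0.11.

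Including bounds, 9 genes were at least 2-fold apart in the same direction in both pairs. The cytochrome P450 gene Cyp4p2 had 806 in PI3K and a value below the floor in control discs, and 859 with both transgenes and 27.2 with Hdac3 RNAi alone, so it was high with PI3K, and without it was below the floor or next to it. Its neighbour Cyp4p1 had 122 in PI3K discs and 108 with both transgenes, and was under the floor on the 2 arrays without PI3K. CG15385 had 168 in PI3K discs and 209 with both transgenes, and was likewise under the floor without PI3K. These 3 genes follow the presence of UAS-PI3K on all 4 arrays.

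The odorant-binding protein gene Obp56d had 803 in PI3K and 263 in control discs, and 575 with both transgenes and 152 with Hdac3 RNAi alone. The gene swi2 had 111 in PI3K and 33 in control discs, and 97.6 with both transgenes, and was under the floor with Hdac3 RNAi alone. CG32055 (1.04 and 1.06) and Cpr64Ac (2.10 and 1.01) were higher in both pairs, and CG10912 (-1.58, and at most -1.38 as a bound) and Drs were lower. Of the 9 genes, 6 lie on chromosome 2, where 38.3% of the measured genes lie. The labelled genotype puts UAS-PI3K opposite en-Gal4, on 1 pair of chromosomes, so PI3K and other sequence carried on that chromosome cannot be told apart.

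**Figure D5:**
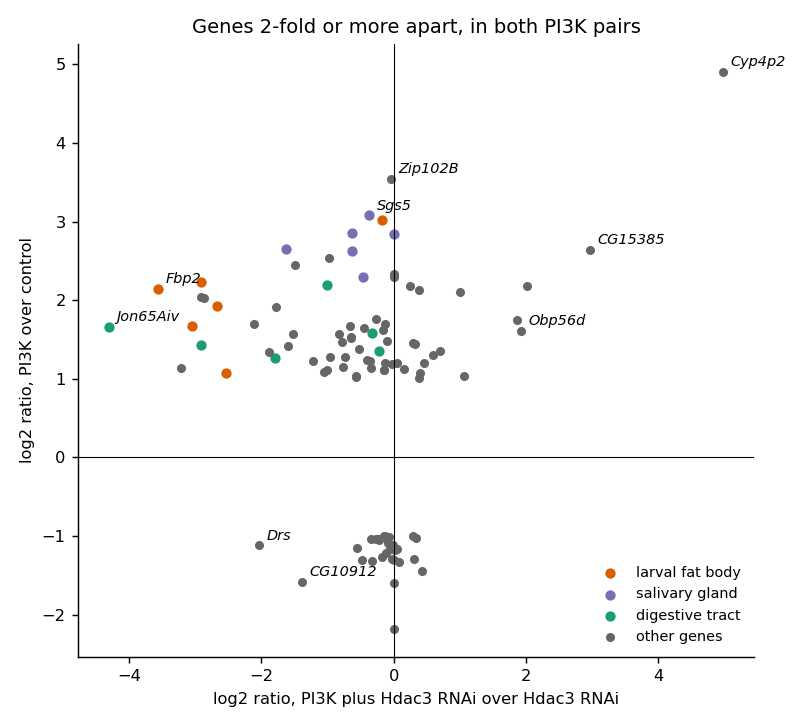
Log2 ratio of PI3K over control (vertical) against that of both transgenes over Hdac3 RNAi alone (horizontal) for every gene at least 2-fold apart in the first pair, bounds included; values under the floor were set to it. Cyp4p2, CG15385 and Obp56d are high in both pairs, and most salivary gland genes lie left of 0. Fat body genes are high in the first pair and, apart from Obp44a near 0, low in the second.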

How the data were processed

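Total RNA from wing discs was hybridised to 1 Affymetrix array a genotype, per the labels. The authors deposited 1 intensity on a linear scale for each of 18952 probe sets. MAS5 is named in the submitters' processing notes without settings, but the like lows and medians of the 4 arrays leave it uncertain that MAS5 made these values, and ratios of dim genes depend on the summary method. How the deposited values were scaled or centred stays unknown, and no detection calls were used. The medians of the deposited columns were 30.9 in PI3K, 29.8 in control, 30.7 with both transgenes and 30.4 with Hdac3 RNAi alone, and the lowest deposited intensity lay between 4.12 and 4.23 on each array. Arrays give no depth; their number limits the precision of each value.

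The array's annotation of 2016 gave 1 gene to 13647 probe sets, several to 402 and none to 4720 besides 183 controls; probe sets with several or none were left out. By gene ID, 13544 matched RefSeq's Drosophila Release 6 table, which gave current symbols, chromosome and gene span. A gene took its brightest probe set. Each array was scaled to the common mean of its 2% trimmed means, values were raised to the floor of 26.9 (the 90th percentile of 125 odorant and gustatory receptor probe sets), and log2 was taken, with Python 3.11.15, numpy 2.4.6 and pandas 2.3.3. A ratio against the floor is a bound. Counting was checked on simulated data.

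The 54 lists hold 1150 genes, with 184 entries not analysed here. A list's median covers members on at least 1 array. The genes named are those at least 2-fold apart, en, inv and hh, disc markers, the insulin, TOR and FOXO members, and the ends of the other lists; middle members are named where the text contrasts them. Members and lists were chosen with earlier results of these data known. No replicates, so no test, was available. No probe, promoter or protein sequences were used here.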

Additional observations from a re-analysis of the deposited data

Results flagged for a closer look

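In 22 genes PI3K came with opposite differences of at least 2-fold in the 2 pairs: higher than control in the first pair, and lower with both transgenes than with Hdac3 RNAi alone in the second. All 22 are among the 63 genes at least 2-fold higher in the first pair. The 18 counted earlier leave out the genes given here as bounds, which were under the floor on 1 array of the second pair. Of all genes on both arrays of the second pair, 0.376% were at least 2-fold lower. The difference between the pairs was not tested, because each rests on 1 array a side. The log2 ratios of the second pair were -4.30 for Jon65Aiv (a bound), -2.92 for Jon65Aiii and -1.80 for yip7 among digestive proteases, and -1.0 for the lysozyme gene LysS. Among fat body genes they were -3.56 for Fbp2, -3.05 for Fbp1, -2.92 for Obp99b, -2.68 for Lsp2 and -2.53 for apolpp. They were -1.78 for fon, -1.63 for CG15369, -1.88 for Tsp42Ep and -1.01 for Tsp42Ek. For genes known by number they were -3.22 for CG31789, -2.91 for CG34166, -2.87 for CG34296, -2.12 for CG2233, -1.59 for CG5958, -1.52 for CG16704, -1.49 for CG8997, -1.22 for CG12115 and -1.06 for CG16713; those of CG31789, CG34296 and CG16713 are bounds. Their ratios in the first pair ran from 1.07 for apolpp to 2.66 for CG15369.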

How the results depend on the processing

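No paired analysis was possible because each genotype has 1 array, and no replicate could be left out. The counts of 63 genes at least 2-fold higher and 29 lower became 27 and 12 with a floor of 100, which tests fewer genes, and 132 and 232 at 1.5-fold. With genes of like span subtracted the higher count was 63 and the lower 18. Under the other settings the higher count lay between 46 and 79 and the lower between 21 and 34. Of the 54 list medians, at least 49 moved by less than the probe set SD of 0.23 under each setting. The main medians were 0.35 for insulin-like peptides, -0.45 for Hox genes, 1.37 for fat body, 0.09 for digestive tract and -0.24 for germline genes. Those of FOXO-activated, salivary gland and differentiated muscle genes are given above. With only probe sets whose name has no suffix, the medians were 0.06 for insulin-like peptides, -0.42 for FOXO-activated genes, -0.14 for Hox genes, 1.07 for fat body and 0.02 for differentiated muscle. With a floor of 100 they were -0.76 for Hox genes, 1.84 for fat body, 2.39 for salivary gland, 1.34 for digestive tract and -0.90 for germline genes. With members on both arrays they were 0.65 for insulin-like peptides, -0.76 for Hox genes, 1.67 for fat body and -0.90 for germline genes. The floor at the 95th percentile gave -0.76 for Hox genes and 1.67 for fat body, the 75th 0.37 for germline genes, and subtraction of span -0.21 for Hox genes. These lists have few members, and the cause was not tested. Imp was at 0.04 with probe sets without suffix, against -1.29, since another probe set then stands for it. Of list medians of at least 0.1 in size, none changed sign under the 3 other scalings. JNK genes did with span subtracted (0.02), cytochrome P450s came to 0.00 with a floor of 100, and the germline and muscle values above also turned. In all 6 medians turned with span subtracted. Signal near the floor limits the dim genes.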

Other observations

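Gene families grouped by name after the values were seen differed in width, where 55.2% of all genes were above 0. Of 14 measured odorant-binding protein genes, 10 were above 0 in PI3K discs, with a median of 0.15, and 3 were past 2-fold: Obp44a, Obp99b and Obp56d. UDP-glycosyltransferases, which add sugars to small molecules, were above 0 in 8 of 10, with a median of 0.22 and none past 2-fold. Jonah proteases were above 0 in 4 of 9, all 4 past 2-fold, with a median of -0.03, and Cyp6 P450 genes in 4 of 8, with a median of 0.01, whereas Cyp4 P450 genes were in 9 of 10, with a median of 0.21. All 7 measured GstD genes were above 0, with a median of 0.13. Tetraspanins, membrane proteins with 4 spans, were above 0 in 17 of 22, with a median of 0.14; Tsp42Ep (1.34) and Tsp42Ek (1.11) were past 2-fold upwards and Tsp96F (-1.04) downwards.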
